A study of Mus musculus with 19 samples.

Results

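The gene-corrected induced pluripotent stem cell (iPSC) lines were set against all leptin receptor-deficient db/db lines of the study. Members were chosen by the labelled group: 4 libraries from 2 corrected lines (db_c_1 and db_c_2) and 8 libraries from 4 db/db lines (adb_db5, bdb_db5, adb_db7 and bdb_db7), 12 of 19 libraries in all. Another 7 libraries from 4 control lines (named A5 and B1) are given beside many of the results. Per the series' design text, fibroblasts came from day 14.5 embryos of heterozygous OB-Rdb/+ parents, wild type for controls and db/db for the mutants. All lines were reprogrammed with a lentivirus that carries Oct4, Sox2, Klf4 and cMyc, and the corrected lines are db/db lines edited with CRISPR-Cas9. From which db/db line they were made, and whether they are separate clones, is not labelled. No db/db line that went through editing and kept its mutation is labelled, so the correction cannot be told apart from the editing, selection and later handling of these lines.

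Leptin binds a cytokine receptor encoded by Lepr, whose long form carries the kinase JAK2 and activates the transcription factor STAT3. STAT3 induces SOCS3, which shuts the signal off, and in mouse pluripotent cells the same factor acts downstream of the cytokine LIF to sustain self-renewal. The db mutation creates a new splice site in Lepr, so that the long form with its signalling tail is lost. Growth signals of this kind also reach protein synthesis, through the kinase mTOR, which reads nutrients, and through MYC, which pairs with MAX and binds the E-box letters CACGTG at genes of ribosome production.

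The 12 libraries held 27333914 to 40331091 counts, with 29842688 to 40331091 in the corrected and 27333914 to 37803560 in the db/db libraries. Counts were summed per line, and levels are CPM (counts scaled to a common library total) after TMM scaling, which removes differences in library composition. Lines that share a name were closer to each other than to lines of other names: over 9182 genes of at least 10 CPM, the median absolute log2 difference was 0.033 between the 2 corrected lines, 0.045 between the 2 db5 lines and 0.106 between the 2 db7 lines. It was 0.31 to 0.32 between corrected and db5 lines, 0.27 to 0.31 between corrected and db7 lines, and 0.28 to 0.30 between corrected and control lines. Between db5 and db7 lines it was 0.15 to 0.22. Among the corrected libraries likeness did not follow the line labels: a chi-square over genes, per degree of freedom, was 3.23 between db_c_1a and db_c_2b and 2.60 between db_c_1b and db_c_2a, against 10.9 and 6.77 between the libraries of line db_c_1 and of line db_c_2. The labelled lines were kept, and counts with the shared name as the unit stand beside many of the results. That unit merges db/db and control lines by name but still enters db_c_1 and db_c_2 as 2 samples by these labels. The p-values therefore measure the spread between these lines, which may be technical. Library adb_db7_2 stood apart, with 4.81% of its counts on the ribosomal RNA-like gene Gm42418 against 0.105% to 0.514% in the other 11. Without it the count of called genes was 7230 in place of 7235. Mitochondrial transcripts made up 1.95% to 2.31% of counts in corrected and 2.27% to 2.85% in db/db libraries.

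In all, edgeR called 7235 of 19700 tested genes between corrected and db/db lines at an adjusted p under 0.05 (36.7%), with 3683 higher (18.7%) and 3552 lower (18%) in corrected lines. Here and below each adjusted p is that of edgeR (quasi-likelihood F-test, corrected by Benjamini and Hochberg's method over the whole table). Against the db5 lines alone 12205 genes were called (62%, with 31.9% of all genes higher and 30.1% lower). Against the db7 lines alone 11894 were called (60.4%, with 30.8% higher and 29.6% lower). A change is called held here where a gene passed all 3 tests with the same sign. Of the 7235 genes 6955 were held (35.3% of all genes tested, and 96.1% of those called), 3507 higher (17.8%) and 3448 lower (17.5%). Of the other 280, 158 passed against db5 only, 111 against db7 only and the rest against neither name. At least 2-fold against each name were 1343 rises and 404 falls. Apart from any test, corrected and db/db libraries did not overlap in 7757 of 19700 genes (39.4%), in either direction. A lack of overlap in a single gene below stands beside that share. The larger counts against single names came with a smaller spread, since a biological coefficient of variation of 5.49% was estimated within names and 18.9% within the 3 groups. A gene that passed against all db/db lines was therefore likely to pass against each name with the same sign. Being held adds little support beyond the first test, here and below.

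With the name as the unit, so that the db/db group counted as 2 samples, edgeR called 3281 of 21134 genes (15.5%), and 3216 genes (16.3% of 19700) were both held and called in that test. These are called firm below, with 1579 rises (8.02%) and 1637 falls (8.31%). Being firm does not remove the limit above, since db_c_1 and db_c_2 still supply the corrected spread in that test. The fit without corrected line db_c_1 gave 3113 called genes and the fit without db_c_2 gave 3183, each with a lone corrected line that is assumed to vary like the lines of the other groups.

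Direction went with level. Genes under 1 CPM had a median log2 difference of 0.29, with 17.7% rising and 4.91% falling, and genes of 100 CPM or more had a median of -0.22, with 6.25% rising and 43.1% falling. The same order held against each name. Among genes of at least 10 CPM, genes with the shortest transcripts (57 to 2278 bases) had a median of -0.26 and those with the longest (4952 to 123179) 0.05. Scaling mattered too: TMM factors were 1.086 and 1.09 in the corrected lines and 0.9458 to 0.9843 in the db/db lines, and scaling by library size alone moved the median of all genes by 0.1723 and gave 5215 rises and 1817 falls (74.2% higher). The part of level, length and scaling in single results was not tested. For the lists of protein synthesis and turnover, nutrient signalling, metabolism and replication, counts of falls are therefore given with 2 further values. These are the count with library size alone and the count after a smooth trend of log2 difference over level was removed, a setting chosen after seeing the data. For every list below, counts against all db/db lines stand beside 18.7% of all tested genes rising and 18% falling.

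**Figure D1:**
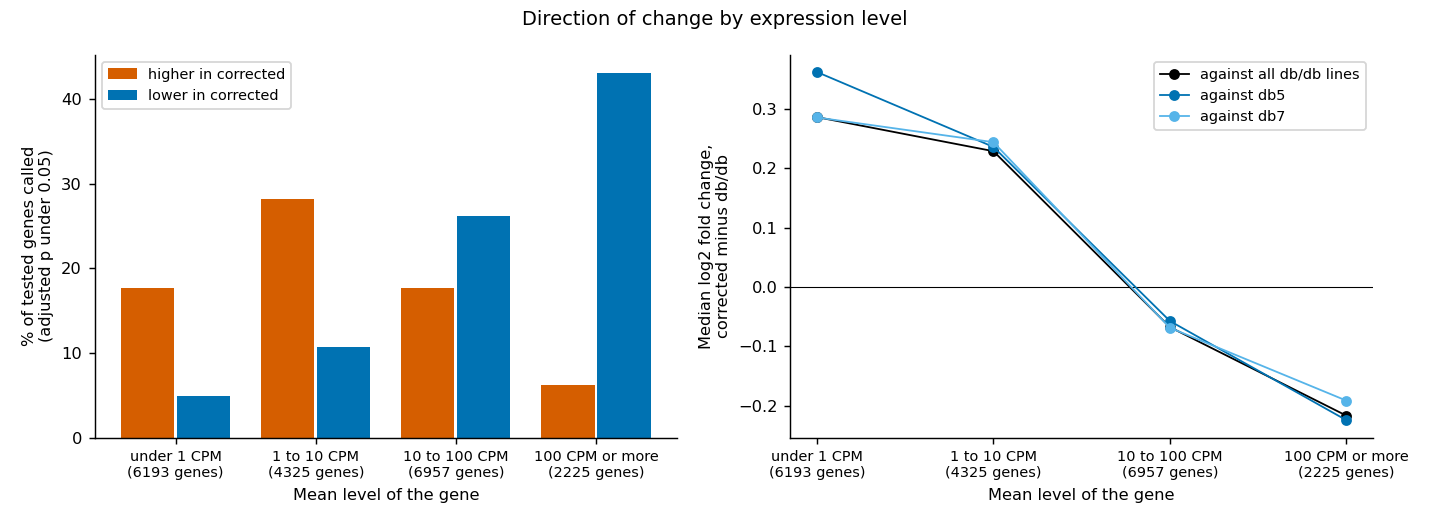
Left, bars of the percent of tested genes called higher or lower in corrected than in db/db lines, by mean level in CPM. Right, the median log2 difference of each level band against all db/db lines and against each name, which ran from 0.29 below 1 CPM to -0.22 at 100 CPM or more.

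Lepr itself was under 1 CPM and higher in corrected lines. Lepr (ENSMUSG00000057722, GRCm38 chr4:101717404-101815352, plus strand) stood at 0.718, 0.729, 0.356 and 0.904 CPM in the 4 corrected libraries and 0.118 to 0.435 CPM (median 0.327) in the 8 db/db libraries, with 0.347 to 0.513 CPM in controls. Corrected library db_c_2a, at the bottom of its group, lay among the db/db libraries, so the groups overlapped. The log2 difference was 1.10 ± 0.27, adjusted p = 0.012, with 0.84 against db5 and 1.44 against db7, and the db7 and db5 lines did not pass the test against each other (edgeR adjusted p = 0.14). With the name as the unit the call ended (adjusted p = 0.071). The db mutation changes splicing, and gene-level counts cannot show whether the long form returned.

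The gene of the receptor's kinase rose. Jak2 (chr19:29251828-29313080, plus strand) was at 9.46, 11.1, 9.99 and 10.03 CPM in the 4 corrected libraries and 1.82 to 4.53 CPM (median 3.50) in the 8 db/db libraries, and at 3.06 to 4.89 CPM in controls, so that no corrected library came near the others. Its log2 difference was 1.56 ± 0.21, adjusted p = 0.00059 (1.29 against db5 and 1.89 against db7). Stat3 moved the other way. Stat3 (chr11:100885098-100939540, minus strand) was at 38.1, 42.4, 38.7 and 39.2 CPM in the 4 corrected libraries and 52.5 to 70.7 CPM (median 59.99) in the 8 db/db libraries, below all db/db libraries and below the 67.1 to 76.7 CPM of controls, for a log2 difference of -0.64 ± 0.06, adjusted p = 8.2e-05. Socs3, the STAT3-induced feedback inhibitor, was at 127, 133, 128 and 119 CPM in the 4 corrected libraries and 167 to 257 CPM (median 217) in the 8 db/db libraries. All corrected libraries lay below all db/db libraries, and controls were at 213 to 427 CPM. Its log2 difference was -0.77 ± 0.19, adjusted p = 0.012, with -0.9995 against db5 and -0.51 against db7 (db7 minus db5 -0.49 ± 0.05, adjusted p = 2.6e-05), and the call ended with the name as the unit (adjusted p = 0.053). Socs2, a related inhibitor of growth hormone and STAT5 signalling, fell from 147 ± 5.6 to 63.0 ± 0.70 CPM (-1.22 ± 0.12, adjusted p = 0.00013), while Stat5b, a STAT5 gene, rose from 3.99 ± 0.49 to 7.24 ± 0.13 CPM (0.86 ± 0.15, adjusted p = 0.0019). In the list for this pathway 8 of 27 tested genes rose and 9 fell. Their median log2 was -0.10, beside 0.02 over all genes tested, and it turned to 0.07 with library size alone. The letters TTCNNNGAA, a STAT-type element searched on both strands from 250 bases before to 50 after the start, were in 2 of 24 promoters of this list (8.33%), against 8.19% of 13124 promoters of tested genes.

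The 10 largest held rises that met the naming rule (at least 5 CPM in the higher group, all corrected libraries above all db/db libraries) are given here gene by gene. The zona pellucida-binding sperm protein gene Zan (chr5:137378637-137477064, minus strand) led with 14.0, 16.4, 16.2 and 13.7 CPM in the 4 corrected libraries and 0.413 to 1.47 CPM (median 0.838) in the 8 db/db libraries, a log2 difference of 3.98 ± 0.44, adjusted p = 0.00022. Gprc5c, an orphan receptor gene, was at 13.5, 15.5, 14.3 and 14.0 CPM in the 4 corrected libraries and 0.537 to 1.19 CPM (median 0.999) in the 8 db/db libraries (3.89 ± 0.16, adjusted p = 5.6e-06). Controls were at 2.16 to 5.68 CPM for Zan and 1.73 to 2.71 for Gprc5c, so the corrected libraries were above every control library as well. Slc1a1, a glutamate and cysteine transporter gene, was at 11.1, 10.3, 11.4 and 10.5 CPM in the 4 corrected libraries and 0.236 to 1.82 CPM (median 0.736) in the 8 db/db libraries (3.62 ± 0.47, adjusted p = 0.00047). Igf2, the imprinted growth factor gene (chr7:142650766-142666816, minus strand), was at 28.8, 23.0, 21.3 and 24.6 CPM in the 4 corrected libraries and 1.21 to 4.36 CPM (median 3.05) in the 8 db/db libraries (3.02 ± 0.24, adjusted p = 4.6e-05). Controls had 1.21 to 2.12 CPM of Slc1a1 and 3.67 to 7.44 of Igf2, again below every corrected library.

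Others of the 10 were Cd200, an immune-regulatory surface protein gene (16.2 ± 0.36 CPM in corrected and 1.67 ± 1.1 in db/db lines), Gata3, a transcription factor of trophoblast and T cells (5.34 ± 0.22 and 0.683 ± 0.30), and the coactivator gene Cited4 (7.97 ± 0.33 and 1.04 ± 0.42), where errors are SD over 2 and 4 lines. Their log2 differences were 3.27 ± 0.46, 2.96 ± 0.38 and 2.94 ± 0.35, each held. For Calcoco2 and Ptges the controls lay between the groups, as they did for Zan and Gprc5c above. Calcoco2, an autophagy receptor gene, was at 91.7, 84.8, 84.6 and 84.2 CPM in the 4 corrected libraries and 7.15 to 15.1 CPM (median 8.51) in the 8 db/db libraries and at 31.0 to 76.1 CPM in controls (3.13 ± 0.35, adjusted p = 0.00024). Ptges, which makes prostaglandin E2, was at 15.3, 16.1, 14.4 and 14.4 CPM in the 4 corrected libraries and 1.504 to 2.15 CPM (median 1.84) in the 8 db/db libraries and at 3.55 to 10.6 CPM in controls (3.02 ± 0.40, adjusted p = 0.00052). Pramel6, of a family with near-identical copies whose reads may be shared, was at 42.5, 40.95, 39.6 and 43.4 CPM in the 4 corrected libraries and 0.554 to 8.94 CPM (median 3.53) in the 8 db/db libraries (3.32 ± 0.78, adjusted p = 0.0087), with 2.48 against db5 and 5.71 against db7. The name as the unit ended the call of Pramel6 (adjusted p = 0.064).

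Among the 10 largest held falls, Gjb1, the gene of the gap junction protein connexin 32, led with 1.23, 1.52, 1.56 and 2.27 CPM in the 4 corrected libraries and 12.1 to 20.9 CPM (median 15.6) in the 8 db/db libraries (-3.34 ± 0.30, adjusted p = 8.4e-05). It lies on the X chromosome, and controls were at 4.51 to 6.67 CPM. Ina, which encodes the neurofilament protein alpha-internexin (chr19:47014698-47025327, plus strand), was at 3.66, 3.79, 4.13 and 4.05 CPM in the 4 corrected libraries and 22.3 to 31.9 CPM (median 25.8) in the 8 db/db libraries (-2.79 ± 0.15, adjusted p = 1.7e-05), and all corrected libraries were also below the controls' 5.94 to 8.31 CPM. Lefty1, a secreted inhibitor of Nodal, was at 14.0, 16.8, 18.01 and 18.01 CPM in the 4 corrected libraries and 37.5 to 139.7 CPM (median 85.1) in the 8 db/db libraries (-2.40 ± 0.55, adjusted p = 0.0076), with 119 to 188 CPM in controls. The db/db libraries of Lefty1 split by name, at 127 to 139.7 CPM in db5 and 37.5 to 43.2 in db7, and the corrected libraries were under both. Ndufa4l2, a mitochondrial protein gene that hypoxia induces, split the same way (23.6 to 33.0 and 6.45 to 10.5 CPM, with 3.22 to 3.64 in corrected libraries), and its log2 difference was -2.45 ± 0.58, adjusted p = 0.0094.

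The X-linked Armcx2 fell by the same order (-2.59 ± 0.30), as did Bcl11a, a zinc-finger repressor gene (-2.59 ± 0.43), and Rragb, an X-linked Rag GTPase of the amino acid branch of mTOR signalling (-2.37 ± 0.36). Rragb was at 1.23, 0.941, 1.18 and 1.03 CPM in the 4 corrected libraries and 4.17 to 7.67 CPM (median 5.52) in the 8 db/db libraries, and at 1.20 to 2.93 CPM in controls, so the corrected libraries were near the controls and the db/db libraries above both. Bcl11a had 1.32 ± 0.055 CPM in corrected, 7.95 ± 2.1 in db/db and 3.18 ± 1.4 in control lines. Lrp8os2, antisense to Lrp8, fell too (-2.53 ± 0.21). No source used here says how the counting treated strand, so reads of Lrp8os2 and Lrp8 may not be separated. Pde5a, a cyclic GMP phosphodiesterase gene on chromosome 3, had 23.4 to 30.6 CPM in db7, 2.85 to 4.06 in db5 and 1.67 to 2.34 in corrected libraries (-2.92 ± 0.93, adjusted p = 0.034). Tbc1d9, whose protein carries a Rab GTPase-activating domain, fell by a log2 of -2.37 ± 0.66. The calls of Pde5a and Tbc1d9 ended with the name as the unit (adjusted p = 0.077 and 0.062).

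**Figure D2:**
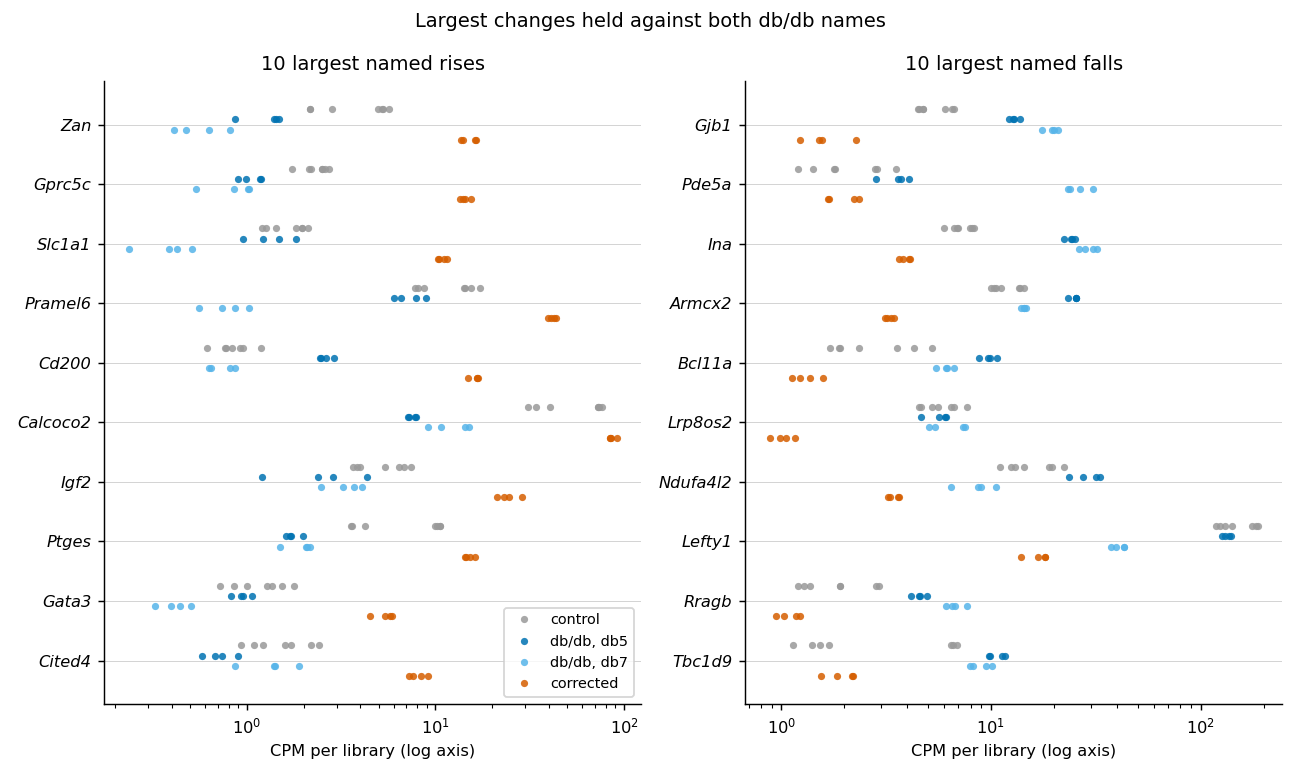
CPM of each library (log axis) for the 10 largest named rises and falls, with points for control, db5, db7 and corrected libraries. Corrected points lie beyond all db/db points in each of the 20 genes, which the naming rule required. The db5 and db7 points of Pramel6, Pde5a and Lefty1 sit apart from each other.

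Genes for making ribosomes and charging tRNA fell together in corrected lines, and Myc fell with them. Myc (chr15:61985391-61990374, plus strand) was at 401, 397, 393 and 374 CPM in the 4 corrected libraries and 597 to 837 CPM (median 719) in the 8 db/db libraries, with 544 to 646 CPM in controls. Every corrected library lay below every db/db and control library, and the log2 difference was -0.90 ± 0.12, adjusted p = 0.00051 (-1.05 against db5 and -0.73 against db7). The counts do not separate the cell's own Myc from the lentiviral copy. Max, the obligate partner of MYC, fell from 102 ± 10 to 61.4 ± 1.1 CPM (-0.74 ± 0.09, adjusted p = 0.00034), and Mnt, a repressor that competes for MAX, from 124 ± 4.9 to 71.7 ± 1.6 CPM (-0.79 ± 0.06, adjusted p = 4.3e-05). Mxi1, a second such antagonist, rose from 45.8 ± 1.7 to 65.1 ± 1.5 CPM (0.51 ± 0.06, adjusted p = 0.00033). Mycn, a MYC paralog, was at 97.8, 101, 102 and 96.3 CPM in the 4 corrected libraries and 121 to 163 CPM (median 136) in the 8 db/db libraries and did not pass (log2 -0.49 ± 0.18, adjusted p = 0.06). Of 13 genes of the MYC network list, 2 rose and 4 fell, all of them firm.

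Ribosome biogenesis factors process ribosomal RNA and assemble both subunits in the nucleolus. Of 84 tested genes of this list 66 fell and 0 rose, all 66 held, with a median log2 of -0.38 (-0.42 against db5 and -0.38 against db7), beside 18% falling and a median of 0.02 over all genes. Of these falls 50 were firm, and 44 fell with library size alone and 43 after the level trend was removed. Nop58, which guides modification of ribosomal RNA in the nucleolus (chr1:59684971-59719044, plus strand), was at 276, 251, 249 and 271 CPM in the 4 corrected libraries and 419 to 475 CPM (median 442) in the 8 db/db libraries. No db/db or control library (control range 406 to 457 CPM) reached down to the corrected ones, and the log2 difference was -0.79 ± 0.06, adjusted p = 3.2e-05 (-0.80 against db5 and -0.78 against db7). Nifk, which binds the proliferation antigen Ki-67, fell from 141 ± 3.5 to 86.9 ± 2.1 CPM (-0.70 ± 0.06, adjusted p = 5.9e-05), Utp15, a part of the small-subunit processome, from 117 ± 5.4 to 72.2 ± 0.99 CPM (-0.70 ± 0.06, adjusted p = 9.1e-05), and Utp4, of the same complex, from 158 ± 5.9 to 102 ± 1.6 CPM (-0.63 ± 0.07, adjusted p = 0.00016).

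The promoters of 2 more members and of a tRNA synthetase are printed because they hold the letters that MYC-MAX or ATF4 are known to bind. Nol11 and Nop2 were chosen after their values were seen, as falls of this list with the E-box in a promoter window free of annotated exons. Nol11, of the small-subunit processome, was at 111, 103, 104 and 109 CPM in the 4 corrected libraries and 145 to 168 CPM (median 150.4) in the 8 db/db libraries (-0.53 ± 0.07, adjusted p = 0.0004), and Nop2, an RNA methyltransferase of the large subunit, was at 176, 177, 172 and 171 CPM in the 4 corrected libraries and 228 to 382 CPM (median 308) in the 8 db/db libraries (-0.83 ± 0.20, adjusted p = 0.01). All corrected libraries were below all db/db libraries for both, and Nop2 differed more against db5 (-1.12) than against db7 (-0.48, with db7 minus db5 at -0.63 ± 0.04, adjusted p = 3.9e-07). Aars, which charges tRNA with alanine, is described further on. The sequences are from RefSeq on GRCm38.p6 and give the 250 bases before the start, 5′ to 3′ on the gene's strand, with CACGTG in capitals for Nol11 (chr11:107189382-107189631, minus strand) and Nop2 (chr6:125131633-125131882, plus strand). In Aars (chr8:111033592-111033841, plus strand) the capitals mark TTGCATCA, the reverse strand of TGATGCAA, the core of the amino acid response element. The Aars window also holds CACGTG, left in lower case. Its RefSeq start lies inside the GENCODE span given with its levels, which begins farther upstream.
Nol11: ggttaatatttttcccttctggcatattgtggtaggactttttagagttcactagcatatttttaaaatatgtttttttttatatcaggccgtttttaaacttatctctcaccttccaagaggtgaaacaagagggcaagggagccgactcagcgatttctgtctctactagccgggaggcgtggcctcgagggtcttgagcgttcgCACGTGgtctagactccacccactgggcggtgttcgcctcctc
Nop2: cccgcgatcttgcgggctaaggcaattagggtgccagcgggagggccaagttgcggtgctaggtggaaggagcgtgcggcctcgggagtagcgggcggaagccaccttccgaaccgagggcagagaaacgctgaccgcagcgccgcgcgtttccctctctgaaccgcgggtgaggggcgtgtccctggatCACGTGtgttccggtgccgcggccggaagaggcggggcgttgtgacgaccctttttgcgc
Aars: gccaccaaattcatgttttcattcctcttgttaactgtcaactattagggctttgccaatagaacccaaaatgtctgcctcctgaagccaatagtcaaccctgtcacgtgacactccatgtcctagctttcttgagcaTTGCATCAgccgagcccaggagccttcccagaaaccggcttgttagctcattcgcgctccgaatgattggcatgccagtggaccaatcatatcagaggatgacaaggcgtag
The E-box begins 43 bases before the start of Nol11 and 60 before that of Nop2, and the marked letters of Aars begin 112 before its start. CACGTG was in 18 of 71 promoters of the ribosome biogenesis list (25.4%), and in 16 of the 58 whose gene fell and was held (27.6%). Other falling lists varied, with 25% for initiation factors, 10% for cytosolic and 7.35% for mitochondrial ribosomal proteins. The share was higher in the germ cell list (55.6%) and the lysosome and autophagy list (41.4%), so it was not particular to ribosome biogenesis. Of all tested genes with a window 1438 of 13124 held it (11%), as did 377 of 2621 held falls (14.4%) and 224 of 2497 held rises (8.97%). TGATGCAA was in 4 of 14 tRNA synthetase promoters (28.6%) and 6 of 23 of the ATF4 list (26.1%), against 99 of 13124 overall (0.754%). The ATF4 list was drawn from known targets of that factor. Both motifs were read on both strands from 250 bases before to 50 after the start, and these are counts of letters with no measure of binding.

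RNA polymerase I transcribes ribosomal RNA and polymerase III transcribes 5S RNA and tRNA. Of 37 genes of their machinery 19 fell and 3 rose (median -0.32, 12 firm falls), and the falls were 12 with library size alone and 15 with the level trend removed. Polr1b, the second largest subunit of polymerase I, was at 158, 164, 159.9 and 159 CPM in the 4 corrected libraries and 202 to 231 CPM (median 216) in the 8 db/db libraries (-0.45 ± 0.06, adjusted p = 0.00039), with 182 to 203 CPM in controls, and the corrected libraries were below all others. Rrn3, the initiation factor that responds to growth signals, fell from 322 ± 9.3 to 233 ± 1.5 CPM (-0.47 ± 0.07, adjusted p = 0.00071). Polr1e, a further subunit, fell by a log2 of -0.54 ± 0.06, and Gtf3c2, of the polymerase III factor TFIIIC, by -0.40 ± 0.06.

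Ribosomal protein genes fell by less, and their count depended on the scaling. Of 81 cytosolic ribosomal protein genes 55 fell and 0 rose, with a median of -0.30 (-0.39 against db5 and -0.21 against db7). Of these 22 were firm, but 8 fell with library size alone, and after the level trend was removed 4 fell and 3 rose (median -0.05). Rpl35 was at 264, 247, 248 and 261 CPM in the 4 corrected libraries and 322 to 386 CPM (median 378) in the 8 db/db libraries (-0.54 ± 0.07, adjusted p = 0.00051), and Rps13 at 355, 444, 439 and 385 CPM in the 4 corrected libraries and 469.7 to 604 CPM (median 576) in the 8 db/db libraries (-0.48 ± 0.07, adjusted p = 0.001). In neither did corrected and db/db libraries overlap. Rps6, whose protein is a substrate of S6 kinase, was at 1084, 1036, 1030.4 and 986 CPM in the 4 corrected libraries and 1110.2 to 1362 CPM (median 1163) in the 8 db/db libraries and did not pass (log2 -0.21 ± 0.08, adjusted p = 0.064). Of 77 mitochondrial ribosomal protein genes 47 fell and 0 rose (median -0.35, 24 firm). With library size alone 23 fell, and 39 after the level trend was removed. Mrps7 fell from 56.2 ± 6.4 to 34.5 ± 0.17 CPM (-0.70 ± 0.10, adjusted p = 0.00078) and Mrps21, on chromosome 3, from 31.1 ± 2.2 to 16.4 ± 0.81 CPM (-0.92 ± 0.13, adjusted p = 0.00082).

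Aminoacyl-tRNA synthetases, which load amino acids onto tRNA, had the lowest list median of the translation machinery in corrected lines. Of 22 genes 17 fell and 0 rose, with a median of -0.51 (-0.59 against db5 and -0.41 against db7). Of these 14 were firm, and 15 fell with library size alone and 15 after the level trend was removed. Aars (chr8:111033144-111057664, plus strand) was at 247, 244, 239 and 238 CPM in the 4 corrected libraries and 407 to 450.3 CPM (median 427) in the 8 db/db libraries, with 409.9 to 473 CPM in controls (-0.84 ± 0.07, adjusted p = 5.3e-05). Rars, for arginine, was at 133, 115, 121 and 129 CPM in the 4 corrected libraries and 189.6 to 211 CPM (median 199.7) in the 8 db/db libraries (-0.70 ± 0.06, adjusted p = 4.6e-05). In both genes the corrected libraries lay far below a narrow band that db/db and control libraries shared. Iars, for isoleucine, fell by a log2 of -0.67 ± 0.07 and Nars, for asparagine, by -0.71 ± 0.07.

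ATF4 is the transcription factor of the amino acid and stress response, and several synthetases are among its targets. Of 26 genes of the ATF4 list 13 fell and 2 rose (median -0.51, 8 firm falls and 2 firm rises), and the falls were 9 with library size alone and 9 with the level trend removed. Aldh18a1, which opens proline synthesis (chr19:40550257-40588463, minus strand), was at 40.2, 45.4, 41.4 and 41.7 CPM in the 4 corrected libraries and 83.0 to 104 CPM (median 97.4) in the 8 db/db libraries and at 109.7 to 133 CPM in controls (-1.21 ± 0.06, adjusted p = 1.5e-05). Slc3a2 and Slc7a5, the chains of a large neutral amino acid transporter, fell from 347 ± 15 to 236 ± 5.0 CPM (-0.56 ± 0.06, adjusted p = 0.00022) and from 371 ± 24 to 239 ± 1.0 CPM (-0.63 ± 0.07, adjusted p = 0.00023). Ppp1r15a, which directs removal of the phosphate from eIF2 alpha, fell by a log2 of -0.58 ± 0.08. All 4 were held against both names.

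Of 44 translation initiation factor genes 23 fell and 2 rose (median -0.23). With library size alone 9 fell, and 9 with the level trend removed. The cap-binding factor gene Eif4e, on chromosome 3 (chr3:138526179-138559696, plus strand), was at 176, 158, 158 and 179 CPM in the 4 corrected libraries and 335 to 503 CPM (median 395) in the 8 db/db libraries, and at 197 to 273 CPM in controls. Corrected libraries were below all others, and db/db libraries were above all controls. The log2 difference was -1.28 ± 0.17, adjusted p = 0.00056 (-1.05 against db5 and -1.49 against db7). Eif1ax, an X-linked start-codon scanning factor, fell from 189 ± 20 to 123 ± 4.2 CPM (-0.62 ± 0.09, adjusted p = 0.00081), with controls at 87.5 ± 2.0 CPM. Denr, which recycles and re-initiates ribosomes, fell from 137 ± 7.3 to 92.7 ± 1.6 CPM (-0.56 ± 0.07, adjusted p = 0.00037). Eif4a2, an eIF4A helicase gene, rose from 532 ± 43 to 815 ± 21 CPM (0.62 ± 0.08, adjusted p = 0.00059), and all its corrected libraries (731 to 890.0 CPM) were above the controls (463 to 568 CPM). Among 17 elongation and termination factors 9 fell and 0 rose. With library size alone 3 fell and 1 rose, and with the level trend removed 4 fell and 2 rose.

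The mTOR list followed with 19 falls and 7 rises among 47 genes (median -0.18, 12 firm falls and 2 firm rises), and the falls were 12 with library size alone and 15 with the level trend removed. Mtor itself was at 103, 114, 112 and 106 CPM in the 4 corrected libraries and 112 to 132 CPM (median 116) in the 8 db/db libraries, which overlapped, and did not pass (log2 -0.14 ± 0.07, adjusted p = 0.13). The falls included parts of the lysosomal nutrient-sensing branch. Rragc, a Rag GTPase gene (chr4:123917446-123936997, plus strand), was at 44.9, 44.4, 41.7 and 47.8 CPM in the 4 corrected libraries and 70.8 to 88.7 CPM (median 82.1) in the 8 db/db libraries and at 55.5 to 67.1 CPM in controls (-0.88 ± 0.07, adjusted p = 4.3e-05). Lamtor3, of the Ragulator scaffold and on chromosome 3, was at 27.1, 24.1, 25.3 and 25.9 CPM in the 4 corrected libraries and 58.7 to 79.1 CPM (median 65.9) in the 8 db/db libraries and at 33.7 to 43.7 CPM in controls (-1.41 ± 0.14, adjusted p = 0.00014). In both, controls stood between the corrected and db/db libraries. Tbc1d7, a subunit of the TSC complex that restrains mTOR, fell from 14.4 ± 2.3 to 6.72 ± 0.17 CPM (-1.10 ± 0.15, adjusted p = 0.00054). Sesn1, a p53-induced leucine sensor that also restrains it, rose from 23.1 ± 2.2 to 44.2 ± 0.38 CPM (0.94 ± 0.12, adjusted p = 0.00047).

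Protein turnover and building blocks went the same way. Of 38 proteasome genes 30 fell and 0 rose (median -0.33, 14 firm). The falls were 14 with library size alone and 13 with the level trend removed. Psmc4, an ATPase of the cap, fell from 195 ± 19 to 128 ± 0.41 CPM (-0.61 ± 0.09, adjusted p = 0.00078) and Psmb2, a core subunit, from 171 ± 12 to 117 ± 1.2 CPM (-0.54 ± 0.07, adjusted p = 0.00046). Of 33 nucleotide synthesis genes 14 fell and 4 rose, with 7 falling with library size alone and 8 with the level trend removed. Mthfd1l and Shmt1, enzymes of one-carbon metabolism, fell from 127 ± 6.9 to 73.1 ± 1.2 CPM (-0.79 ± 0.07) and from 139 ± 5.6 to 74.6 ± 0.49 CPM (-0.90 ± 0.09), and Psph, the last step of serine synthesis, fell by a log2 of -0.86 ± 0.12. The X-linked Prps2, which makes the ribose donor for nucleotides, rose from 41.5 ± 1.4 to 68.6 ± 0.84 CPM (0.73 ± 0.06, adjusted p = 7e-05), above the controls' 26.4 ± 0.95 CPM.

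**Figure D3:**
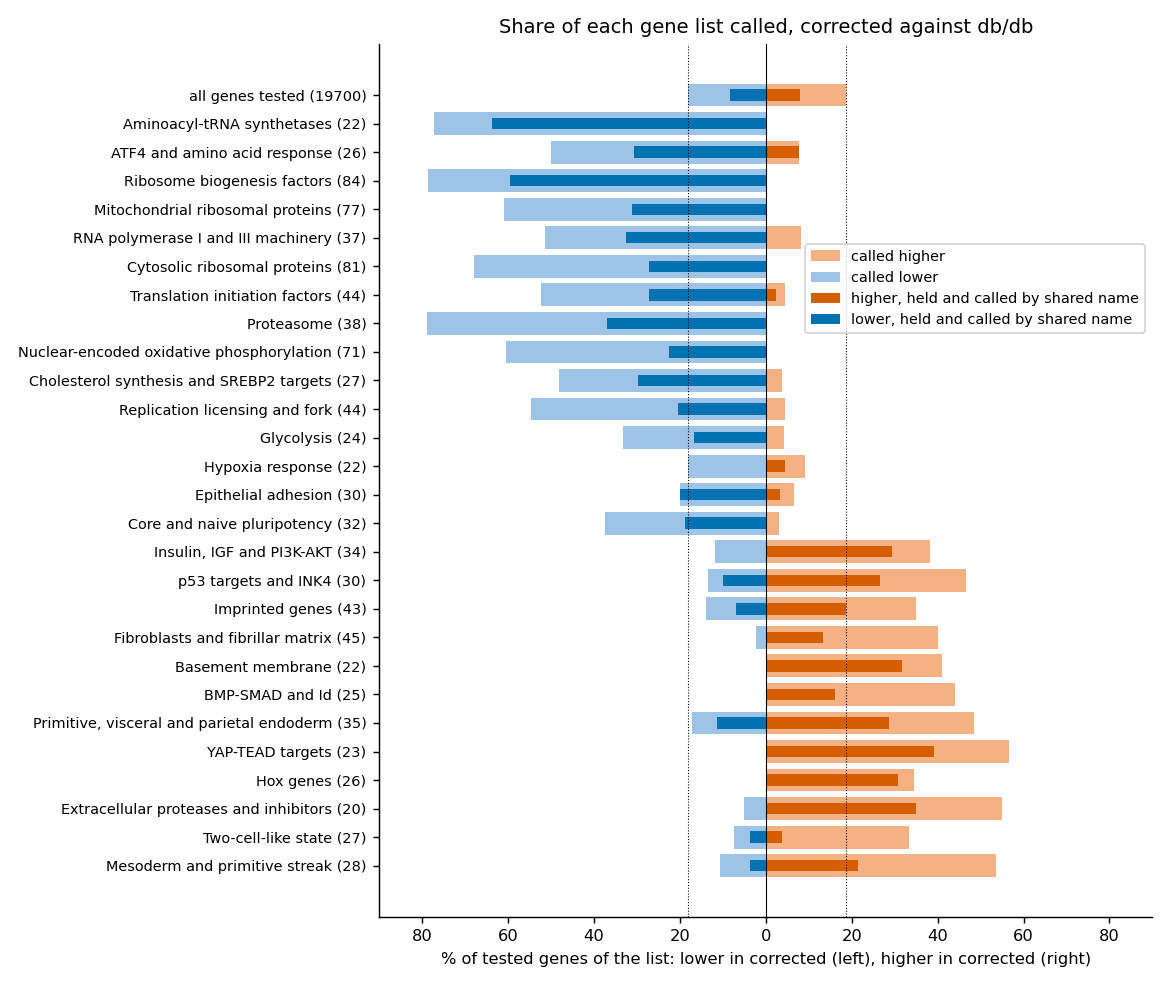
Percent of the tested genes of each list called lower (bars to the left) or higher (bars to the right) in corrected than in db/db lines, with the firm part in the darker colour and dotted lines at the shares over all genes tested (18% lower and 18.7% higher). Lists of the translation machinery extend to the left, with 0 rises for ribosome biogenesis, tRNA synthetases and ribosomal proteins, and YAP, protease, mesoderm and basement membrane lists to the right.

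Nuclear genes of oxidative phosphorylation fell as well, in numbers that depended on the setting. Of 71 genes 43 fell and 0 rose (median -0.28, 16 firm), but 11 fell with library size alone and 16 after the level trend was removed. Cox7a2l, which joins respiratory complexes, fell from 141 ± 12 to 93.2 ± 0.90 CPM (-0.60 ± 0.08, adjusted p = 0.00057). Atp5c1, the gamma subunit of ATP synthase, fell by a log2 of -0.40 ± 0.06 and Ndufs6, of complex I, by -0.43 ± 0.07.

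Sterol synthesis fell at several steps. Of 27 cholesterol synthesis genes 13 fell and 1 rose (median -0.31, 8 firm), and the falls were 8 with library size alone and 9 with the level trend removed. Idi1 and Fdps, which form the isoprenoid precursors, fell from 72.6 ± 2.8 to 50.1 ± 0.00077 CPM (-0.54 ± 0.08, adjusted p = 0.00069) and, on chromosome 3, from 95.7 ± 8.2 to 50.7 ± 0.23 CPM (-0.92 ± 0.11, adjusted p = 0.00034). Lss, which closes the ring, fell from 59.3 ± 1.7 to 35.3 ± 0.10 CPM (-0.75 ± 0.09, adjusted p = 0.00039), and Dhcr7, the final reduction, from 21.9 ± 2.0 to 12.3 ± 0.24 CPM (-0.83 ± 0.10, adjusted p = 0.00039). The fatty acid list was mixed, with 10 rises and 6 falls among 27 genes (falls were 4 with library size alone and 4 with the level trend removed). Acaa2, the last enzyme of mitochondrial beta-oxidation, was at 53.7, 55.5, 58.1 and 51.5 CPM in the 4 corrected libraries and 9.62 to 21.6 CPM (median 15.03) in the 8 db/db libraries and at 24.4 to 30.2 CPM in controls (1.81 ± 0.25, adjusted p = 0.00064), with the corrected libraries above both other groups. Fads1, a desaturase, rose from 50.4 ± 3.2 to 74.3 ± 1.1 CPM (0.56 ± 0.07, adjusted p = 0.00046).

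Among 24 genes of the NRF2 and oxidative stress list 7 fell and 1 rose (18% of all genes fell). With library size alone 3 fell and 2 rose, and with the level trend removed 3 fell and 3 rose. Sod2, the mitochondrial superoxide dismutase gene, was at 125, 122, 122 and 119.8 CPM in the 4 corrected libraries and 192 to 228 CPM (median 215) in the 8 db/db libraries (-0.82 ± 0.07, adjusted p = 5.5e-05), with 174 to 214 CPM in controls. Gclm, a subunit of the enzyme that limits glutathione synthesis, on chromosome 3, fell from 272 ± 38 to 103 ± 3.4 CPM (-1.40 ± 0.28, adjusted p = 0.0039), and controls were at 120.5 ± 41 CPM. Nqo1, a quinone reductase gene, rose from 29.7 ± 3.4 to 45.6 ± 0.98 CPM (0.62 ± 0.10, adjusted p = 0.0014). Gclm and Nqo1, both known targets of NRF2, thus moved in opposite directions.

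YAP and TEAD carry the Hippo pathway's signal for growth and tension into transcription. Of 23 target and pathway genes 13 rose and 0 fell (18.7% of all genes rose), with a median of 0.65 (0.75 against db5 and 0.44 against db7), and 9 rises were firm. Ccn1, a secreted matrix protein gene on chromosome 3 (chr3:145646976-145649981, minus strand), was at 182, 185, 193 and 181 CPM in the 4 corrected libraries and 47.1 to 85.4 CPM (median 63.4) in the 8 db/db libraries and at 82.8 to 124 CPM in controls (1.499 ± 0.22, adjusted p = 0.0009). Lats2, the kinase that turns YAP off and is itself a YAP target, was at 39.5, 40.6, 38.7 and 39.5 CPM in the 4 corrected libraries and 9.56 to 20.03 CPM (median 13.9) in the 8 db/db libraries and at 5.997 to 7.94 CPM in controls (1.46 ± 0.21, adjusted p = 0.00078). Controls of Ccn1 were below every corrected library, and those of Lats2 were below every corrected and db/db library. Tead3, a DNA-binding partner of YAP, rose from 2.42 ± 0.56 to 8.43 ± 0.14 CPM (1.80 ± 0.31, adjusted p = 0.0021), and Axl, a receptor tyrosine kinase gene, from 4.30 ± 0.77 to 9.33 ± 1.8 CPM (1.12 ± 0.17, adjusted p = 0.001).

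In the BMP list the rises included ligand, antagonists and inhibitors. Of 25 genes 11 rose and 0 fell (median 0.44, 4 firm). The ligand gene Bmp7 was at 10.9, 11.7, 10.98 and 10.7 CPM in the 4 corrected libraries and 1.75 to 4.04 CPM (median 2.65) in the 8 db/db libraries (2.02 ± 0.35, adjusted p = 0.0019), and Smad6, an inhibitory SMAD, at 8.69, 11.3, 9.85 and 8.48 CPM in the 4 corrected libraries and 1.66 to 2.85 CPM (median 2.25) in the 8 db/db libraries (2.07 ± 0.28, adjusted p = 0.00056). Nog, which encodes the secreted antagonist noggin, was low at 1.23, 1.24, 0.958 and 0.966 CPM in the 4 corrected libraries and 0.239 to 0.456 CPM (median 0.354) in the 8 db/db libraries (1.63 ± 0.24, adjusted p = 0.00084). Bambi, a decoy receptor, rose from 6.03 ± 0.80 to 9.65 ± 0.080 CPM (0.68 ± 0.13, adjusted p = 0.003), with an adjusted p of 0.05 when the name was the unit. In these genes every corrected library was above every db/db library.

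For Nodal, activin and TGF-beta 9 of 29 genes rose and 3 fell (median 0.27, 7 firm rises). The receptor genes Tgfbr3 and Tgfbr2 were at 11.4, 11.7, 10.9 and 11.001 CPM in the 4 corrected libraries and 2.71 to 3.95 CPM (median 3.26) in the 8 db/db libraries (1.77 ± 0.11, adjusted p = 1.9e-05) and at 5.35, 5.71, 4.52 and 5.80 CPM in the 4 corrected libraries and 1.19 to 1.91 CPM (median 1.49) in the 8 db/db libraries (1.77 ± 0.19, adjusted p = 0.00019). Smad3, the effector, rose from 15.2 ± 1.8 to 28.6 ± 0.39 CPM (0.91 ± 0.13, adjusted p = 0.00066). The activin antagonist Fst rose from 9.21 ± 0.82 to 19.6 ± 0.75 CPM (1.09 ± 0.10, adjusted p = 9.1e-05), while Lefty1, the Nodal inhibitor above, fell.

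Of 34 insulin, IGF and PI3K-AKT genes 13 rose and 4 fell (median 0.18, 10 firm rises and 0 firm falls). Insr, the insulin receptor gene (chr8:3122061-3279617, minus strand), was at 55.99, 60.1, 57.4 and 59.4 CPM in the 4 corrected libraries and 23.98 to 35.3 CPM (median 27.6) in the 8 db/db libraries and at 26.9 to 30.2 CPM in controls (1.01 ± 0.11, adjusted p = 0.00018). Pik3r3, a regulatory subunit of PI3-kinase, was at 17.2, 17.1, 17.0 and 18.8 CPM in the 4 corrected libraries and 2.91 to 4.69 CPM (median 3.66) in the 8 db/db libraries and at 6.60 to 8.09 CPM in controls (2.24 ± 0.15, adjusted p = 2.5e-05). Inppl1, the phosphatase SHIP2 that removes the PI3-kinase product, was at 258, 275, 275 and 259 CPM in the 4 corrected libraries and 129 to 136 CPM (median 132) in the 8 db/db libraries (0.998 ± 0.12, adjusted p = 0.00033). Corrected libraries of all 3 were above every db/db and control library.

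In the list of FGF and ERK feedback genes and targets falls outnumbered rises, by an amount that depended on the setting. Of 28 genes 9 fell and 1 rose (median -0.28, 4 firm). With library size alone 6 fell and 2 rose (median -0.11), and with the level trend removed 6 fell and 1 rose (median -0.08). Among all 19700 genes 1817 and 3057 fell in these settings. Spry4 was at 182, 188, 189 and 186 CPM in the 4 corrected libraries and 254 to 377 CPM (median 287) in the 8 db/db libraries (-0.72 ± 0.13, adjusted p = 0.0022) and its relative Spry2 at 128, 128, 128 and 131 CPM in the 4 corrected libraries and 177 to 234 CPM (median 201) in the 8 db/db libraries (-0.67 ± 0.12, adjusted p = 0.0019). Controls had 148 to 233 CPM of Spry4, a range that holds the corrected libraries, and 142 to 175 of Spry2. Dusp5, a nuclear ERK phosphatase, fell from 61.8 ± 4.7 to 40.1 ± 0.77 CPM (-0.62 ± 0.11, adjusted p = 0.0022). Etv5, an ETS factor downstream of ERK, fell from 606 ± 8.6 to 469 ± 5.8 CPM (-0.37 ± 0.05, adjusted p = 0.00046), a call that ended after the level trend was removed (log2 -0.13, adjusted p = 0.1).

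Extracellular proteases and their inhibitors had 11 rises and 1 fall among 20 genes (median 0.84, 7 firm rises). Mmp15, a membrane-anchored metalloprotease gene, was at 14.7, 14.8, 16.5 and 16.0 CPM in the 4 corrected libraries and 3.22 to 4.36 CPM (median 3.56) in the 8 db/db libraries (2.10 ± 0.13, adjusted p = 2e-05), and Htra1, a secreted serine protease gene, at 68.9, 66.3, 65.7 and 61.8 CPM in the 4 corrected libraries and 27.7 to 35.3 CPM (median 32.3) in the 8 db/db libraries (1.03 ± 0.14, adjusted p = 0.00061). Plat, tissue plasminogen activator, rose from 1.43 ± 0.29 to 4.24 ± 0.44 CPM (1.56 ± 0.20, adjusted p = 0.00045) and Adamts5, an aggrecanase, from 0.195 ± 0.062 to 1.08 ± 0.17 CPM (2.47 ± 0.27, adjusted p = 0.00019). Line medians of this list relative to the db/db mean were 0.90 and 0.76 in corrected lines and 0.54 to 0.76 in control lines.

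The summed level of 10 pluripotency markers overlapped between the groups, at 6554 to 6876 CPM in corrected, 6531 to 6956 in db/db and 6254 to 6814 in control libraries. Of these 10 markers, however, 5 fell and 1 rose, all held, with a median log2 of -0.23. Of 32 core and naive pluripotency genes 12 fell and 1 rose (median -0.08). With library size alone 7 fell and 6 rose (median 0.09), and with the level trend removed 6 fell and 6 rose (median 0.13). Pou5f1, which encodes Oct4, was at 1250.1, 1357, 1372 and 1244 CPM in the 4 corrected libraries and 1409 to 1637 CPM (median 1562) in the 8 db/db libraries (-0.25 ± 0.06, adjusted p = 0.0086), but its difference turned to 0.03 after the level trend was removed and missed the threshold with the name as the unit (adjusted p = 0.073). Sox2, on chromosome 3 (chr3:34650405-34652461, plus strand), was at 415, 417, 406 and 388 CPM in the 4 corrected libraries and 573 to 768 CPM (median 661) in the 8 db/db libraries and at 419.6 to 507 CPM in controls (-0.71 ± 0.10, adjusted p = 0.00068). Nanog was the rise, at 565, 546, 545 and 549.6 CPM in the 4 corrected libraries and 368 to 459 CPM (median 404) in the 8 db/db libraries and at 470.1 to 631 CPM in controls (0.42 ± 0.11, adjusted p = 0.018, adjusted p = 0.084 with the name as the unit). Klf4 was at 574, 645, 625 and 575 CPM in the 4 corrected libraries and 617 to 686 CPM (median 664) in the 8 db/db libraries, which overlapped (-0.14 ± 0.09, adjusted p = 0.23). Counts of Pou5f1, Sox2 and Klf4 include any transcript of the reprogramming virus that matches them.

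Nr5a2, a nuclear receptor of naive cells, fell from 112 ± 12 to 60.3 ± 2.3 CPM (-0.89 ± 0.10, adjusted p = 0.00019), and Tcl1, an AKT coactivator, from 212 ± 32 to 125 ± 3.5 CPM (-0.77 ± 0.12, adjusted p = 0.0012). Primed and formative genes, of the state after implantation, had 5 rises and 7 falls among 21, where 18.7% of all genes rose and 18% fell. Otx2, a leading factor of that state, was at 9.11, 8.83, 10.5 and 10.3 CPM in the 4 corrected libraries and 21.5 to 58.7 CPM (median 36.9) in the 8 db/db libraries and at 19.3 to 30.4 CPM in controls (-1.98 ± 0.28, adjusted p = 0.00074). Corrected libraries were the lowest of the 3 groups.

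Extraembryonic endoderm genes were higher in corrected lines. Of 35 genes of the primitive, visceral and parietal endoderm list 17 rose and 6 fell (median 0.64 against all db/db lines, 0.65 against db5 and 0.64 against db7, 10 firm rises). Of 13 tested markers fixed for this cell type 10 rose and 0 fell, and their summed level was 470 to 534 CPM in corrected, 189 to 266 in db/db and 258 to 284 in control libraries. Much of the sum in corrected libraries came from the basement membrane genes Col4a1 and Col4a2, whose levels are given below. The defining genes Foxa2, Afp, Ttr and Apoa1 were under 1 CPM in all 12 libraries. Fewer or more cells of a type and less or more RNA per cell cannot be told apart in these bulk libraries. Pdgfra, a primitive endoderm receptor gene, was at 3.22, 3.10, 2.35 and 2.87 CPM in the 4 corrected libraries and 0.603 to 1.47 CPM (median 0.897) in the 8 db/db libraries (1.60 ± 0.18, adjusted p = 0.00023), and Apom, an apolipoprotein gene, at 6.40, 6.13, 6.43 and 6.20 CPM in the 4 corrected libraries and 0.418 to 1.21 CPM (median 0.792) in the 8 db/db libraries (2.91 ± 0.30, adjusted p = 0.00015). Fabp3, a fatty acid-binding protein gene of the same list, moved the other way, at 49.8, 44.9, 47.4 and 48.1 CPM in the 4 corrected libraries and 113 to 212 CPM (median 161) in the 8 db/db libraries and at 46.4 to 57.5 CPM in controls (-1.77 ± 0.19, adjusted p = 0.00018), so that db/db libraries stood above the other groups.

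Type IV collagen and laminin genes are among these markers and were also counted in a list of basement membrane genes, with 9 rises and 0 falls among 22 genes (median 0.42, 7 firm). Col4a1 and Col4a2, the head-to-head chains of type IV collagen (chr8:11198423-11312826, minus strand, and chr8:11312805-11449287, plus strand), were at 173, 184, 175 and 162 CPM in the 4 corrected libraries and 47.6 to 79.7 CPM (median 66.5) in the 8 db/db libraries (1.41 ± 0.13, adjusted p = 0.00011) and at 93.5, 102, 94.6 and 90.003 CPM in the 4 corrected libraries and 26.6 to 42.2 CPM (median 36.9) in the 8 db/db libraries (1.41 ± 0.14, adjusted p = 0.00012). Lama5, a laminin chain made by pluripotent cells themselves, was at 361, 429, 413 and 368 CPM in the 4 corrected libraries and 172 to 204 CPM (median 181) in the 8 db/db libraries (1.06 ± 0.06, adjusted p = 1.8e-05). All corrected libraries were above all others in these 3 genes, with 50.1 to 69.1, 25.3 to 43.9 and 191 to 235 CPM in controls. Lama4 rose from 0.678 ± 0.10 to 2.43 ± 0.38 CPM (1.84 ± 0.19, adjusted p = 0.00014).

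Of 45 fibroblast and fibrillar matrix genes 18 rose and 1 fell (median 0.41), of which 6 rises were firm. The 8 fixed fibroblast markers summed to 200 to 286 CPM in corrected, 104 to 259 in db/db and 236 to 475 in control libraries, with Lum and Dcn under 1 CPM in all 12. Col5a1 was at 82.2, 91.7, 82.5 and 79.4 CPM in the 4 corrected libraries and 28.2 to 46.6 CPM (median 36.3) in the 8 db/db libraries and at 53.5 to 84.4 CPM in controls (1.19 ± 0.09, adjusted p = 3.6e-05). Col6a1 rose from 7.63 ± 1.2 to 17.4 ± 3.7 CPM (1.19 ± 0.17, adjusted p = 0.00078), and Twist1, a mesenchymal transcription factor gene, from 1.72 ± 0.38 to 4.97 ± 0.025 CPM (1.52 ± 0.22, adjusted p = 0.0008). Line medians of the list, relative to the db/db mean, were 0.46 and 0.37 in corrected, -0.18 and -0.17 in db5, 0.17 and 0.21 in db7 and 0.51 to 0.77 in control lines, so the corrected lines lay between db/db and control lines.

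Mesoderm and primitive streak genes rose at very low levels. Of 28 tested genes 15 rose and 3 fell (median 1.01, 6 firm rises), while the 6 fixed mesoderm markers were each under 1 CPM in all 12 libraries. Hand1, a factor of trophoblast and lateral mesoderm, was at 0.672, 0.971, 0.739 and 0.717 CPM in the 4 corrected libraries and 0.0589 to 0.197 CPM (median 0.0766) in the 8 db/db libraries (3.06 ± 0.40, adjusted p = 0.00048), Isl1, of cardiac and motor neuron progenitors, at 1.21, 0.880, 0.794 and 0.904 CPM in the 4 corrected libraries and 0.132 to 0.295 CPM (median 0.238) in the 8 db/db libraries (1.99 ± 0.25, adjusted p = 0.00042), and Mixl1, of the primitive streak, at 0.301, 0.334, 0.301 and 0.499 CPM in the 4 corrected libraries and 0.0294 to 0.174 CPM (median 0.0690) in the 8 db/db libraries (2.09 ± 0.30, adjusted p = 0.0007). Levels of this size correspond to few counts per library, and genes under 1 CPM had a median of 0.29 as a whole.

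Hox genes, which set position along the body axis, showed 9 rises and 0 falls among 26 tested genes, with 8 rises firm. Their median level was 0.224 CPM. The list median of 0.64 was 0.25 with the level trend removed, where 8 rose and 0 fell. Hoxd13 was at 2.41, 2.22, 2.08 and 1.71 CPM in the 4 corrected libraries and 0.478 to 1.001 CPM (median 0.787) in the 8 db/db libraries and at 1.19 to 1.94 CPM in controls (1.47 ± 0.21, adjusted p = 0.00069). Its controls ran from above the db/db libraries into the range of the corrected ones. Hoxd8 rose from 0.203 ± 0.032 to 0.825 ± 0.11 CPM (2.01 ± 0.22, adjusted p = 0.00022).

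Neural lists held both rises and falls. Summed neural progenitor and neuron markers were 38.7 to 41.6 CPM in corrected, 56.01 to 87.3 in db/db and 84.2 to 123.1 in control libraries, and 3 of 5 tested markers fell, with Dcx under 1 CPM throughout. The neural progenitor list had 7 rises and 7 falls among 32 genes, and the neuron list 12 and 9 among 40, where 18.7% of all genes rose and 18% fell. Among progenitor genes Neurog1, a proneural factor, was at 0.765, 0.729, 0.876 and 0.810 CPM in the 4 corrected libraries and 2.33 to 4.53 CPM (median 3.32) in the 8 db/db libraries (-2.07 ± 0.27, adjusted p = 0.00047). Pax2 and Lhx2, patterning factors of the brain and eye, rose from 0.287 ± 0.089 to 2.04 ± 0.068 CPM (2.81 ± 0.27, adjusted p = 0.00011) and from 0.278 ± 0.065 to 1.83 ± 0.15 CPM (2.71 ± 0.26, adjusted p = 0.00012). Of the neuron list Celf5 and Celf4, splicing regulators, rose from 9.52 ± 0.55 to 32.1 ± 0.093 CPM (1.76 ± 0.15, adjusted p = 6.8e-05) and from 12.8 ± 1.0 to 26.9 ± 0.035 CPM (1.08 ± 0.12, adjusted p = 0.00019), while Ncam1, the adhesion molecule gene, fell from 25.8 ± 1.8 to 13.7 ± 0.50 CPM (-0.92 ± 0.09, adjusted p = 9.4e-05), as did Ina above.

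Among 23 germ cell genes 3 rose and 5 fell, where 18.7% of all genes rose and 18% fell. Tfap2c and Prdm1, factors of primordial germ cell specification, fell from 31.3 ± 0.80 to 10.9 ± 0.14 CPM (-1.52 ± 0.14, adjusted p = 0.0001) and from 14.6 ± 0.83 to 6.57 ± 0.82 CPM (-1.15 ± 0.15, adjusted p = 0.00047). Dazl, an RNA-binding protein gene of later germ cells, was at 56.5, 49.4, 50.1 and 55.9 CPM in the 4 corrected libraries and 17.8 to 35.8 CPM (median 24.8) in the 8 db/db libraries and at 33.6 to 49.96 CPM in controls (1.03 ± 0.19, adjusted p = 0.0024). Tex15, a meiotic gene, was at 5.28, 4.28, 4.32 and 4.61 CPM in the 4 corrected libraries and 9.93 to 14.8 CPM (median 11.2) in the 8 db/db libraries and at 3.71 to 6.43 CPM in controls (-1.33 ± 0.15, adjusted p = 0.00026), so that corrected libraries were near controls and db/db libraries above both.

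**Figure D4:**
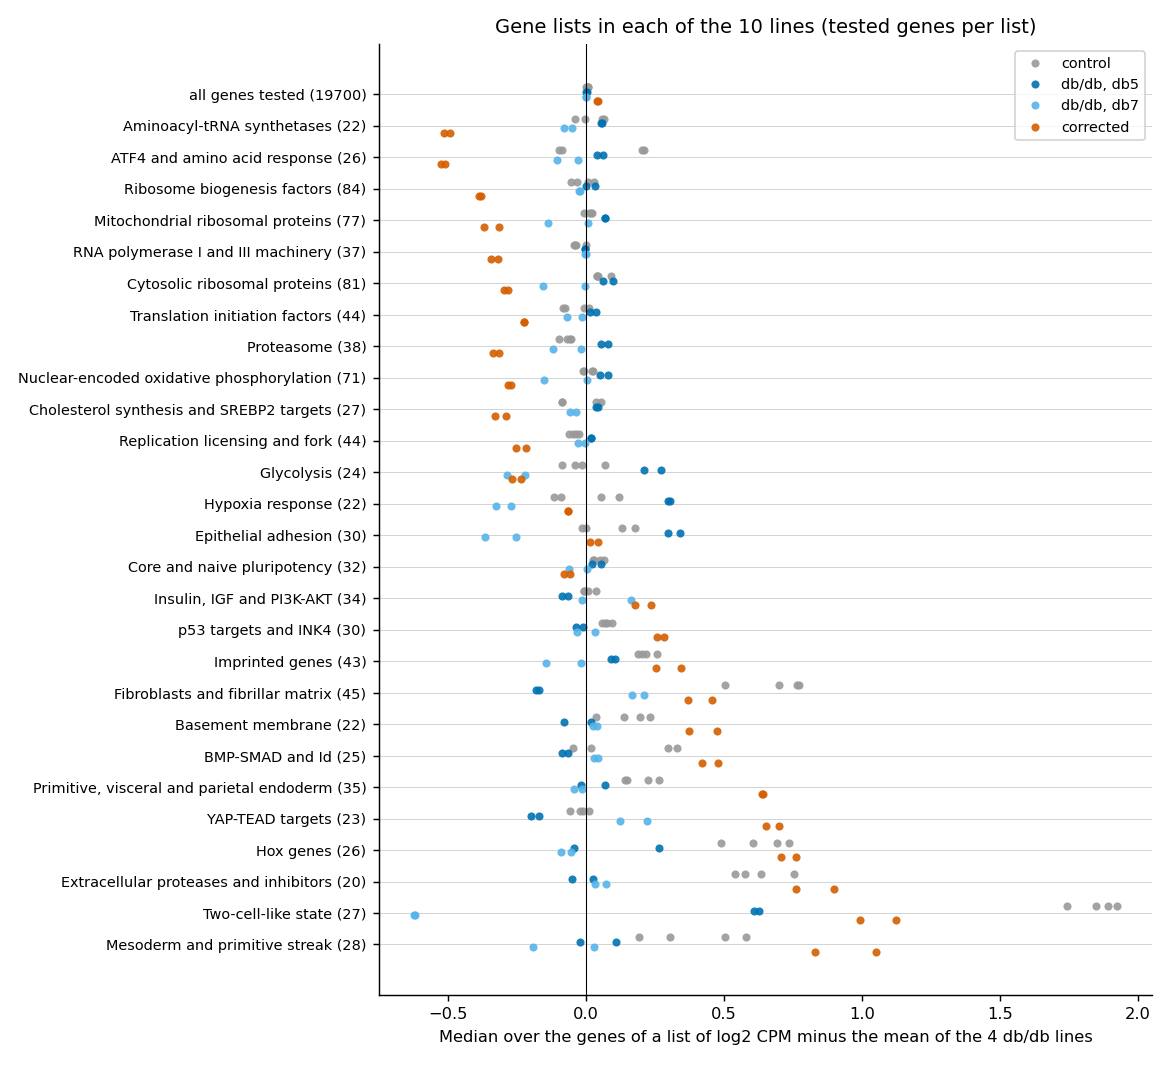
Each point is the median over a list's tested genes of a line's log2 CPM minus the mean of the 4 db/db lines, for 2 corrected, 2 db5, 2 db7 and 4 control lines. Corrected lines are the lowest for ribosome biogenesis and tRNA synthetases and the highest for endoderm and YAP targets, and db5 and db7 points lie on opposite sides of 0 for glycolysis, hypoxia response, epithelial adhesion and the two-cell-like state.

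Imprinted genes, which are read from the maternal or the paternal copy, showed 15 rises and 6 falls among 43 (median 0.26, 8 firm rises). H19, the noncoding RNA next to Igf2, was at 44.2, 39.98, 36.4 and 36.8 CPM in the 4 corrected libraries and 5.22 to 15.5 CPM (median 10.8) in the 8 db/db libraries and at 15.3 to 23.0 CPM in controls (1.93 ± 0.23, adjusted p = 0.00029), and Igf2 rose with it. The 2 genes are known to be expressed from opposite parental alleles. Plagl1, a zinc-finger regulator of other imprinted genes, was at 26.7, 28.1, 27.6 and 25.2 CPM in the 4 corrected libraries and 7.48 to 14.0 CPM (median 10.96) in the 8 db/db libraries and at 19.96 to 26.4 CPM in controls (1.30 ± 0.16, adjusted p = 0.00041), where the ranges of corrected and control libraries overlapped. Impact, a regulator of translation under amino acid shortage, fell from 253 ± 18 to 131 ± 3.5 CPM (-0.95 ± 0.10, adjusted p = 0.00014). In the list of DNA methylation genes Tet3, which oxidises methylcytosine, rose from 19.8 ± 2.2 to 46.3 ± 0.38 CPM (1.22 ± 0.12, adjusted p = 0.00012), and Zfp57, which guards imprints, from 315 ± 19 to 412 ± 8.3 CPM (0.39 ± 0.07, adjusted p = 0.0017).

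Cell cycle genes fell at the replication step and p53 targets rose. Of 44 replication genes 24 fell and 2 rose (median -0.24, 9 firm falls), and the falls were 7 with library size alone and 12 with the level trend removed. Chaf1a, which loads histones behind the fork, was at 115, 114, 114 and 114 CPM in the 4 corrected libraries and 171 to 187 CPM (median 181) in the 8 db/db libraries (-0.66 ± 0.05, adjusted p = 4.6e-05). Mcm3, of the replicative helicase, fell from 426 ± 11 to 307 ± 3.0 CPM (-0.47 ± 0.05, adjusted p = 0.00022) and Rfc5, of the clamp loader, from 218 ± 8.2 to 147 ± 1.1 CPM (-0.56 ± 0.08, adjusted p = 0.00086). Of 36 mitosis genes 11 fell and 3 rose, and the median of -0.12 turned to 0.06 with library size alone. Spc24, a kinetochore protein gene, fell from 52.4 ± 2.6 to 32.5 ± 0.035 CPM (-0.69 ± 0.07, adjusted p = 0.00016). Ccnb1, cyclin B1, fell from 483 ± 39 to 358 ± 3.9 CPM (-0.43 ± 0.08, adjusted p = 0.0024), a call that ended after the level trend was removed (adjusted p = 0.069).

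Of 30 p53 target and INK4 genes 14 rose and 4 fell (median 0.27, 8 firm rises). The cyclin-dependent kinase inhibitor genes Cdkn2c and Cdkn2b were at 4.19, 4.61, 3.94 and 3.93 CPM in the 4 corrected libraries and 0.597 to 1.66 CPM (median 1.12) in the 8 db/db libraries (1.86 ± 0.23, adjusted p = 0.00039) and at 3.801, 4.71, 3.97 and 3.65 CPM in the 4 corrected libraries and 1.12 to 2.21 CPM (median 1.83) in the 8 db/db libraries (1.20 ± 0.15, adjusted p = 0.00043). Perp, a p53-induced membrane protein gene, was at 88.0, 78.8, 84.1 and 84.8 CPM in the 4 corrected libraries and 23.2 to 40.9 CPM (median 29.6) in the 8 db/db libraries and at 32.8 to 37.0 CPM in controls (1.45 ± 0.17, adjusted p = 0.00028). Corrected libraries of Perp and Cdkn2c were above all others, while those of Cdkn2b overlapped the controls' 3.05 to 4.39 CPM.

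Where corrected lines lay between the 2 db/db names, the comparison against all db/db lines had no single answer. Of 19700 genes 8269 (42%) were called between db7 and db5 lines. Corrected lines were called higher than one name and lower than the other in 594 genes, 262 of them higher than db5 and 332 higher than db7. All 594 were also called between db7 and db5, which opposite calls in the same fit make nearly certain. Crmp1, a neuronal growth cone protein gene, had 2.71 to 3.83 CPM in corrected, 101 to 109 in db5 and 2.25 to 3.27 in db7 libraries, a log2 difference of -4.93 against db5 and 0.30 against db7. Krt8, a keratin gene of simple epithelium, had 22.0 to 23.7 CPM in corrected, 24.2 to 33.5 in db5 and 3.03 to 4.30 in db7 libraries. Car2, carbonic anhydrase, on chromosome 3, had 48.8 to 54.0, 56.5 to 57.9 and 7.10 to 7.88 CPM in the same order, and the retinoic acid-induced meiotic gene Stra8 had 2.44 to 3.17, 8.50 to 12.04 and 1.10 to 2.13. In these 4 genes corrected lines lay between a higher db5 and a lower db7.

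The reverse order was seen for Arhgef28, a guanine nucleotide exchange factor gene, with 11.8 to 14.0 CPM in corrected, 2.55 to 4.44 in db5 and 26.7 to 33.0 in db7 libraries. It was also seen for the transcription factor gene Sox21 (9.82 to 12.1, 5.25 to 7.74 and 32.0 to 49.6), for Lrp2, the endocytic receptor megalin (9.09 to 11.3, 4.33 to 5.72 and 18.8 to 25.5), and for Pdlim5, a cytoskeletal scaffold gene on chromosome 3 (81.4 to 83.8, 28.8 to 32.2 and 152 to 180.1). Each was higher than db5 and lower than db7 in corrected lines.

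Some lists divided in the same manner. Over all genes tested 31.9% rose and 30.1% fell against db5, and 30.8% rose and 29.6% fell against db7. Of 24 glycolysis genes 20 fell and 2 rose against db5 (median -0.60), while 9 rose and 9 fell against db7 (median 0.08), and 8 fell and 1 rose against all db/db lines (falls were 5 with library size alone and 4 with the level trend removed). Ldhb, which favours the use of lactate, was at 35.9, 33.7, 33.9 and 34.5 CPM in the 4 corrected libraries and 70.1 to 161 CPM (median 107) in the 8 db/db libraries (-1.68 ± 0.23, adjusted p = 0.00056) and was held. Aldoc, an aldolase gene, fell from 25.7 ± 1.9 to 8.71 ± 0.46 CPM (-1.56 ± 0.16, adjusted p = 0.00016), and Pgam1 fell from 954 ± 55 to 655 ± 2.0 CPM (-0.54 ± 0.10, adjusted p = 0.0032). Hypoxia response genes had 17 falls and 3 rises of 22 against db5, and 6 falls and 12 rises against db7. Epithelial adhesion genes had 19 falls and 6 rises of 30 against db5, and 7 falls and 17 rises against db7. In that list Epcam, a surface protein of pluripotent cells, was at 119, 112, 113 and 112 CPM in the 4 corrected libraries and 178 to 266 CPM (median 231) in the 8 db/db libraries (-1.01 ± 0.14, adjusted p = 0.00066), and Pkp2, a desmosome gene, fell from 23.1 ± 1.4 to 9.69 ± 0.42 CPM (-1.25 ± 0.15, adjusted p = 0.00036), while the tight junction gene Ocln rose from 4.31 ± 0.51 to 9.91 ± 0.074 CPM (1.20 ± 0.13, adjusted p = 0.00022). All 3 were held against both names.

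Genes of the two-cell-like state, which few cells of a pluripotent culture enter at a time, showed rises whose size depended on the name. Of 27 genes 9 rose and 2 fell, with a median of 0.41 against db5 and 1.80 against db7, and 1 rise was firm. The median level of the list was 1.43 CPM, and with the level trend removed 3 rose and 1 fell (median 0.67). Line medians relative to the db/db mean were 1.12 and 0.99 in corrected, 0.63 and 0.61 in db5, -0.62 and -0.62 in db7 and 1.74 to 1.93 in control lines. Many members of this list have near-identical copies, so their reads may be shared.

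Chromosome 3 had the lowest median of the chromosomes against all db/db lines and against db7, but not against db5. Over its 422 genes of at least 10 CPM the median log2 difference was -0.41 against all db/db lines, -0.24 against db5 and -0.57 against db7. The other autosomes and the X chromosome had medians of -0.22 to -0.01 against all db/db lines, and chromosome 17 was at -0.24 against db5. Eif4e, Sox2, Lamtor3, Fdps, Gclm, Mrps21 and Pde5a lie on chromosome 3 and fell, whereas Ccn1 on the same chromosome rose. The part of the chromosome in these results was not tested. Without genes of chromosomes 3, 6 and 15 the test called 6467 of 17069 genes.

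**Figure D5:**
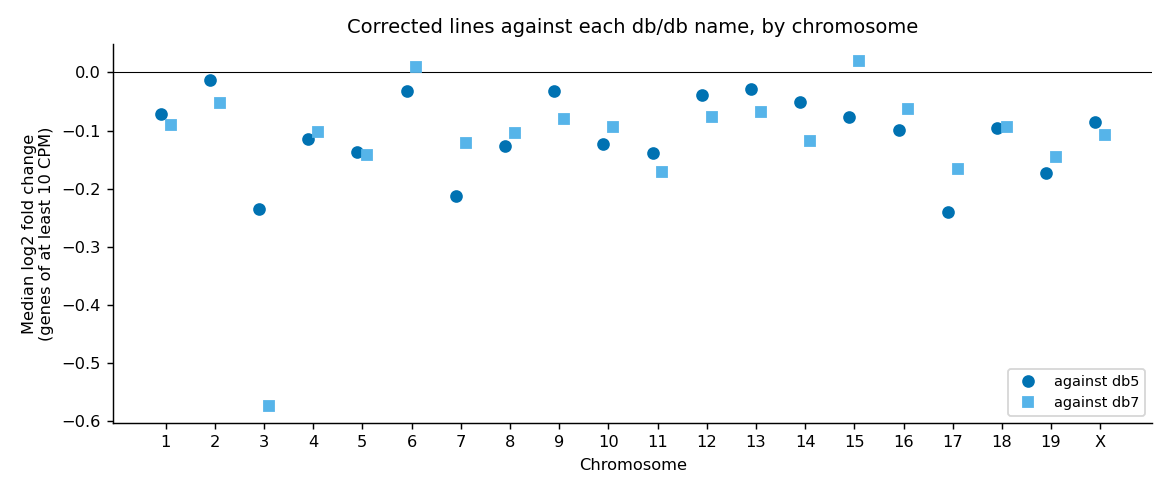
Median log2 difference of corrected lines against db5 (circles) and db7 (squares) lines, by chromosome, over genes of at least 10 CPM. Chromosome 3 is the lowest against db7 at -0.57 and lies at -0.24 against db5, where chromosome 17 is as low.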

How the data were processed

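Stranded poly(A) RNA-seq libraries (TruSeq Stranded mRNA, per the labels' protocols) were read on a NovaSeq instrument. They were in duplicate per line, except for control line aB6_A5 with 1 library. The authors deposited 1 table of estimated counts per gene, made with kallisto against GRCm38 per the submitters' processing notes. Its version, the annotation and the treatment of strand are not given in these sources. Of 52143 identifiers 51336 matched GENCODE M21 (99.38% of counts), and 79.7% of values were whole (tolerance 1e-06). Counts were rounded per library and summed per line, because the labels do not name separate cultures. Genes passing edgeR's filterByExpr (19700) were TMM-scaled and put through edgeR 4.0.16 (glmQLFit, glmQLFTest, R 4.3.3), with Benjamini-Hochberg adjustment at 0.05. The fit over 10 lines in 3 groups gave corrected minus db/db, and a fit with 5 names gave corrected minus db5, corrected minus db7 and db7 minus db5. SE is the standard error of the log2 difference, and SD is over lines (n = 2 corrected, 4 db/db, 4 control). For corrected lines the SD tends to understate the spread among libraries, because each line sums dissimilar libraries. The scripts were tested on simulated counts.

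The comparison and the 58 lists (1910 of 1916 entries matched) were chosen with earlier results of these data known, so lists are described by counts and medians without a test. Genes were named by rule: the 10 largest held rises and falls of at least 5 CPM without overlap of libraries and without predicted genes (3 larger rises and 1 larger fall were left out) or pseudogenes, 13 fixed genes, up to 4 members of lowest p in each list, and the 4 genes of largest fold in each direction called oppositely against the names. Nol11 and Nop2 fall outside it. The rule left out Xist, Tsix and Y-linked genes, and 1 gene it named is not reported here. Alternatives covered scaling, filter, test (DESeq2 1.42.0, limma 3.58.1), unit, and left-out lines, libraries and chromosomes. Trends over length with GC content and over level were added after seeing the data. Control and db/db libraries carry the numbers 1 and 2 and corrected libraries the letters a and b, so no label pairs them. Promoters were matched by symbol in RefSeq windows on GRCm38.p6, and a window was used for 13124 of 19685 tested genes.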

Additional observations from a re-analysis of the deposited data

Results flagged for a closer look

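Within groups of 4 lines, 1 line stood far from the other 3 by Dixon's test in 6 of 326 groups checked. The usual chance rate of about 1 in 20 assumes 4 independent lines. Each group here is made of pairs of near-copy lines that share a name, so that rate does not apply. Rps6 was at 1312 CPM in db/db line bdb_db5 and at 1137 to 1161 in the other 3. Sod2 was at 211.3 CPM in bdb_db7, just under the 214.7 to 215.1 of the others. In the same line Tex15 was at 14.37 CPM (others 10.56 to 11.05) and Aldoc at 22.93 (others 26.45 to 26.81). Among controls, Axl was at 6.628 CPM in aB6_A5 (others 7.314 to 7.403) and Ldhb at 81.82 in bB6_A5 (others 72.31 to 73.83). The share of counts on Gm42418 was 4.81% in library adb_db7_2 and 0.123% to 0.514% in the other 7 db/db libraries.

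The 8 genes here were picked by rule for the largest db7 minus db5 difference, 4 in each direction, among the 594 called oppositely. A pass between db7 and db5 lines was nearly certain by that choice, so the adjusted p-values add no support. The db7 minus db5 log2 difference was 3 for Arhgef28 (adjusted p = 8.7e-09), 2.18 for Lrp2 (6.4e-08), 2.48 for Pdlim5 (3.2e-10) and 2.62 for Sox21 (1e-09). It was -2.93 for Car2 (3.6e-11), -5.23 for Crmp1 (1.9e-11), -3.02 for Krt8 (1.2e-09) and -2.66 for Stra8 (2.9e-08).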

How the results depend on the processing

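The count of genes called between corrected and db/db lines (7235) moved with the unit and with the corrected line left out: 4289 genes were called by limma-voom with a random block for the shared name, and 3281 of 21134 with that name as the unit. Leaving out each line gave 3113 (without db_c_1) to 7638 (without bdb_db7), with 3183 without db_c_2, and for held genes 3098 to 7105, with 3173 without db_c_2. The fits without a corrected line rest on a lone corrected line. Other settings gave 4879 of 11226 genes (at least 5 CPM in 2 lines) to 8057 (limma-voom with the line as a block), with 7995 by DESeq2, 7763 with a trend over length and GC removed (43% higher) and 6146 with a trend over level removed.

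No label pairs corrected with db/db libraries. With each library as a sample, a replicate block of the duplicate number or letter gave 9727 called genes and no block 9933. Against db5 the block gave 12304 (12141 without), against db7 11996 (11793 without), and for held genes 8541 (8463 without).

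Of 163 genes named, 151 were called and held. Of these, 8 missed the threshold with the shared name as the unit, 9 without db_c_1, 9 without db_c_2 and 3 with the level trend removed. Pou5f1, at 0.02627 with the level trend removed, was the called gene that changed sign. Genes that were not called and changed sign were Rps6 (0.05708, level trend), Mtor (0.03003 with library size alone, 0.02939 level trend) and Klf4 (0.03355 and 0.109). Arhgef28 was at 0.3998 and 0.3978 with limma-voom (line and name as block) and -0.6841 to 0.1597 with a line left out, and Pdlim5 at 0.2421, 0.2393 and -0.5679 to 0.1733. The cause was not tested. Of 58 list medians 37 kept their sign in all 26 settings, and 16 changed it with library size alone, 12 with the level trend removed and 9 with the stricter filter.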
